A study of Mus musculus with 27 samples.

Results

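Fatty acid oxidation and ketogenesis were followed through 31 genes, taken by symbol from the mouse gene identifiers of the deposited tables. There were 20 genes of mitochondrial β-oxidation, 9 of peroxisomal oxidation, the ketone enzyme Bdh1 and the regulator Ppara, out of 51826 genes listed. All 31 passed the filter on low counts, as did 16428 genes in all, and together they took between 0.963% and 1.37% of the counts of a library. The data were bulk RNA sequencing of whole livers from 27 wildtype BALB/c mice, an inbred laboratory strain, and the labels give no transgene or drug in any group. Mating took place between 10 and 12 weeks of age, and litters were brought to an even size. The 7 groups were non-pregnant, age-matched females (NUL, 4 libraries), mothers at day 10 of lactation (LAC, 3), mothers sampled 2, 4, 6 or 8 days after their pups were removed (ID2, 3; ID4, 4; ID6, 6; ID8, 3) and mothers 4 weeks past weaning (REG, 4). Pups were removed between day 10 and day 14 of lactation, so animals of the weaned groups may not all have nursed equally long.

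Long-chain fatty acids enter mitochondria as carnitine esters, which CPT1A forms at the outer membrane, SLC25A20 carries across the inner membrane and CPT2 turns back into acyl-CoA. The acyl-CoA then passes through repeated rounds of dehydrogenation, hydration, a second dehydrogenation and thiolysis, and the electrons of the first step reach the respiratory chain through ETFA, ETFB and ETFDH. Peroxisomes shorten very long and branched fatty acids with their own enzymes and hand the products on. The liver also turns acetyl-CoA into ketone bodies, starting with ACAT1, and BDH1 interconverts acetoacetate and β-hydroxybutyrate; fasting raises the pathway, in large part through the nuclear receptor PPARα.

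The libraries held 41120650 to 75664540 estimated counts. All 8 hepatocyte markers were found in every group. The summed level of the erythroid markers differed between the groups, from 51.9 to 107 TPM in ID8 and 197 to 847 TPM in ID6 to at least 1144 TPM in every other library, where TPM is the length-scaled transcript level. The summed level of pancreatic acinar markers was 2216 TPM in ID2_31 (libraries are named by group and animal number) and at most 156 TPM elsewhere. A clock score, the difference between genes of the day and night arms of the circadian clock, ranged from -2.76 to -1.91 in ID6, from -2.93 to -1.57 in NUL, from -2.28 to -1.002 in LAC, from -0.82 to 1.04 in ID2, from -1.91 to -0.57 in ID4, from -1.46 to -0.42 in ID8 and from -1.93 to -0.60 in REG. Animal numbers in the titles were under 200 in 7 animals, which included all of ID8, 2 of 3 in ID2 and 2 of 4 in ID4. According to the authors' readme, 16 libraries had been sequenced in 2 runs, among them all 4 of ID4 and 4 of 6 in ID6, but 1 of 3 in ID2 and 1 of 3 in ID8. The part of these differences in the results was not tested beyond the fits given beside them.

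Promoter sequences are shown for 5 members whose levels moved differently: Acsl5 and Ehhadh, which were high in lactation; Hadh and Acadm, which were low at ID6; and Etfa, which showed no called difference among the stages and had the lowest spread within groups. Each is the 250 bases before a RefSeq transcript start on build GRCm38.p6, written 5′ to 3′ on the strand of the gene. Capitals mark matches to the motifs searched.
Acsl5, chr19:55253119-55253368, plus strand: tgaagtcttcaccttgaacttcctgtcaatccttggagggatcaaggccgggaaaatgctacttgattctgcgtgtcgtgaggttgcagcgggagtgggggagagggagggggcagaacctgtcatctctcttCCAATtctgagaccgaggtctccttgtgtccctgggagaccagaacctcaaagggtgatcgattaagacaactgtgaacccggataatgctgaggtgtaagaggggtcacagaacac
Ehhadh, chr16:21787835-21788084, minus strand: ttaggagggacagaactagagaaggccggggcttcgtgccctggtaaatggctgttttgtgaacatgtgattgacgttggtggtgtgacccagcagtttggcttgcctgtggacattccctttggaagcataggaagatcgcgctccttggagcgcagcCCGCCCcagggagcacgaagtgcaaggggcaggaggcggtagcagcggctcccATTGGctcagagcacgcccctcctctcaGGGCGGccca
Hadh, chr3:131272102-131272351, minus strand: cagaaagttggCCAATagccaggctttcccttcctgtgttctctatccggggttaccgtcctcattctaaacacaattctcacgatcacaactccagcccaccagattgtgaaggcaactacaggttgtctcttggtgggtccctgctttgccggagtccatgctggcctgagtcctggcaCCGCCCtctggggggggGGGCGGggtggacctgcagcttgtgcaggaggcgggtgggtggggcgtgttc
Acadm, chr3:153944644-153944893, minus strand: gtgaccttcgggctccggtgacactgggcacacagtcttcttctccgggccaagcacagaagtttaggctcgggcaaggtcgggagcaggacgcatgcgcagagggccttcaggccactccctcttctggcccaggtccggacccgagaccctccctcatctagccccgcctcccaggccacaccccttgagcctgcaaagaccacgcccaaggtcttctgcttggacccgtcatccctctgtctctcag
Etfa, chr9:55512244-55512493, minus strand: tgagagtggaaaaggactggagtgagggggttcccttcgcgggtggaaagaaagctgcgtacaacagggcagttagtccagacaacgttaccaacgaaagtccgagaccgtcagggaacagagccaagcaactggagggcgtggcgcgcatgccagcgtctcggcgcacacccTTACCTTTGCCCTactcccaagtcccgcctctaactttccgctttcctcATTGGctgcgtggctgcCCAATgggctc
The motifs were DR1, the direct repeat of AGGTCA with 1 base between to which PPARα binds with RXR, allowing up to 2 mismatches, and exact copies of the GC box GGGCGG, of the CCAAT box and of the E-box CACGTG. Both strands were searched. A match describes letters and not a bound site, and no match of one motif overlapped another in the 5 windows. RefSeq gave 29 windows for 27 of the 31 members; Acaa2, Hsd17b4, Crat and Decr1 were not matched. The direct repeat was found in 6.9% of the member windows, those of Etfa (77 bases before the start, on the strand opposite to the gene) and Echs1 (83 bases before the start, on the strand of the gene), and in 3.24% of 32851 windows of all genes. GGGCGG was in 65.5% of member windows and 32.7% of all, CCAAT in 41.4% and 33.8%, and CACGTG in 0% and 6.02%. Acadm, with none of the 4 motifs in its window, and Hadh, with 2 copies of GGGCGG, were both lower at ID6 than at ID4. Against NUL, Acadm was called lower at ID6 and Hadh was not called. A link between motifs and levels was not tested.

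In the GENCODE annotation on GRCm38, Cpt1a (ENSMUSG00000024900) lies at chr19:3322334-3385733 on the plus strand; Bdh1 (ENSMUSG00000046598) lies at chr16:31422280-31458901 on the plus strand; and Ppara (ENSMUSG00000022383) lies at chr15:85734983-85802819 on the plus strand. Of the members with high levels in lactation, Acsl5 (ENSMUSG00000024981) lies at chr19:55251938-55297720 on the plus strand, and Ehhadh (ENSMUSG00000022853) lies at chr16:21761287-21787807 on the minus strand. The promoter window of Acsl5 lies inside that gene, before an inner transcript start. In the non-pregnant liver the members covered a wide range of levels per length. Scp2, whose products are a sterol carrier and a peroxisomal thiolase, had the highest mean at 2714 TPM. The mitochondrial thiolase Acaa2 followed at 746 TPM, the peroxisomal thiolase Acaa1b at 689 TPM and the electron carrier subunit Etfb at 679 TPM. Cpt1a, the entry step to mitochondrial oxidation, stood at 85.6 TPM and Ppara at 30.3 TPM (mean of 4). Eci3, a peroxisomal enoyl-CoA isomerase, was the lowest at 1.45 TPM. Spread within groups was small for most members: the median coefficient of variation was 4.25% for Etfa at the low end, 16.0% for Crot and 24.9% for Eci3 at the high end.

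Over all 7 groups, 24 of the 31 members differed between stages at an adjusted p under 0.05 (edgeR quasi-likelihood test, Benjamini-Hochberg adjustment over all genes tested), where the share of all genes called was 27%. These were 15 of the 20 mitochondrial genes, 8 of the 9 peroxisomal genes and Bdh1. The 7 that were not called were Etfa (adjusted p = 0.613), Etfb (0.607), the very-long-chain dehydrogenase Acadvl (0.408), the acyl-CoA synthetase Acsl1 (0.328), Ppara (0.192), Eci2 (0.146) and Slc25a20 (0.120). Acaa2, Hsd17b4, a peroxisomal bifunctional enzyme, and Scp2 differed over the stages (adjusted p = 0.0442, 0.0295 and 0.00312) but were called in no single comparison. Scp2 had group means from 1812 CPM in LAC to 2456 CPM in ID4, Acaa2 from 653 CPM in ID6 to 782 CPM in LAC, and Hsd17b4 from 331 CPM in ID6 to 416 CPM in LAC. Among members not called, Slc25a20 ranged in its group means from 52.4 CPM in ID6 to 72.8 CPM in NUL and Eci2 from 127 CPM in ID2 to 178 CPM in NUL. The range was 327 to 358 CPM for Etfa, 264 to 309.8 CPM for Etfb, 499.9 to 566 CPM for Acadvl and 658 to 808 CPM for Acsl1. Leaving out 1 library at a time gave between 19 and 26 members. In CPM, 14 of the 20 mitochondrial members had their lowest group mean at ID6, 3 in LAC, 2 in ID2 and 1 in ID4. Of 9 peroxisomal members, 3 had theirs at ID6. On the TPM scale the lowest group changed for some mitochondrial members. Slc25a20 had a mean of 40.4 TPM in ID2 and 43.4 TPM in ID6, and Acads 134 TPM in LAC and 139.9 TPM in ID6. Cpt2, Acadl, Acadm and Hadha stayed lowest at ID6 on that scale.

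**Figure D1:**
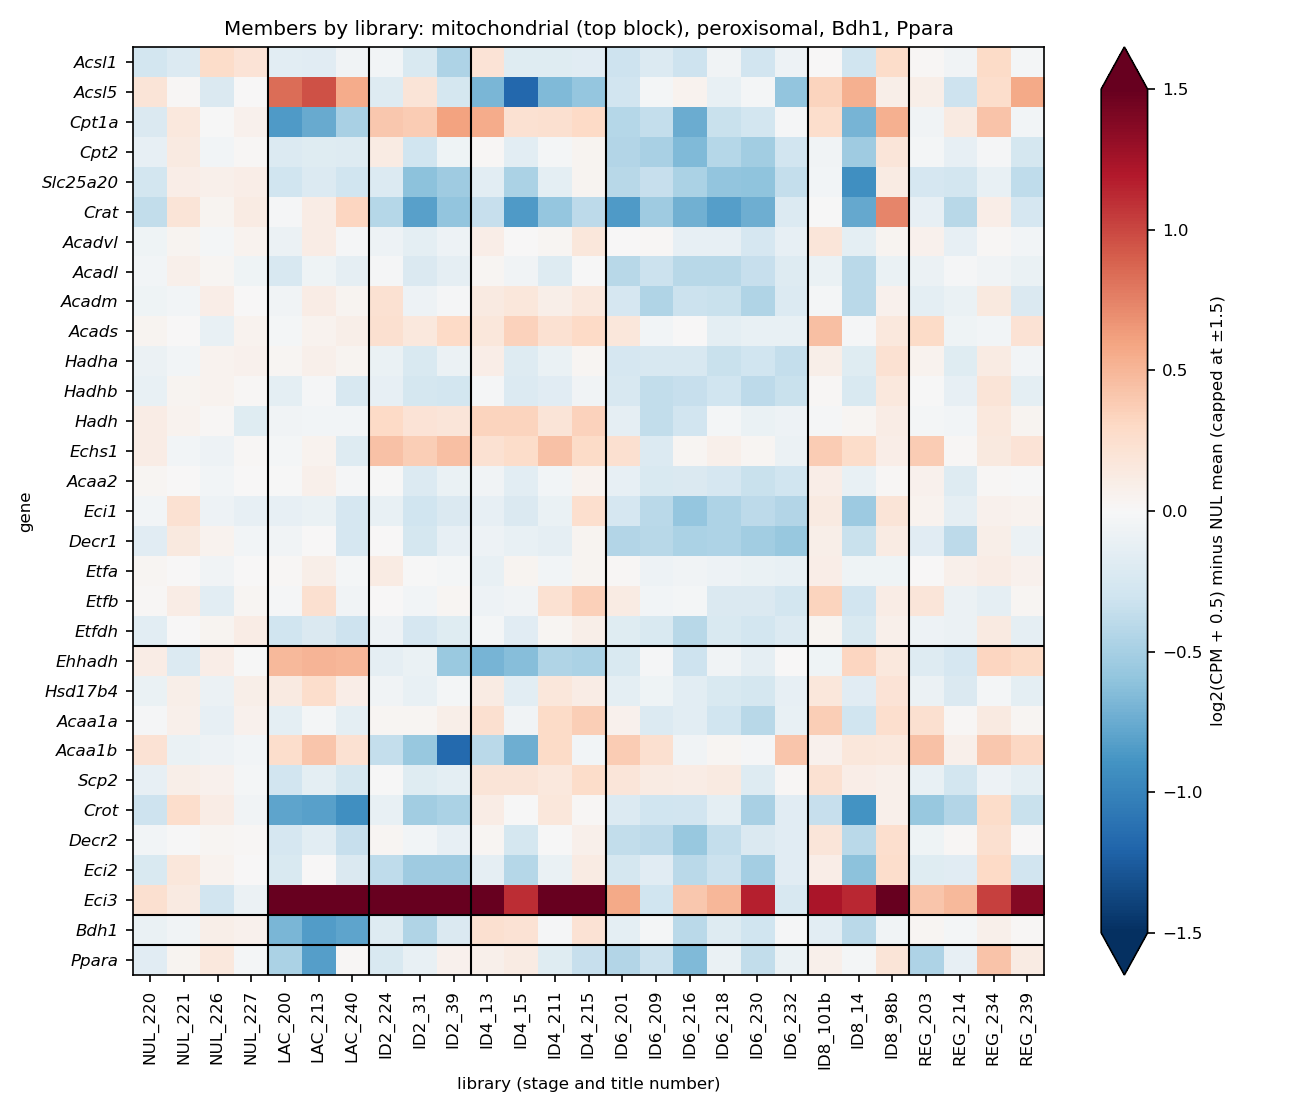
Level of each of the 31 genes (rows, by class) in each of the 27 libraries (columns, by stage), as log2(CPM + 0.5) minus the mean of the 4 NUL libraries, with colour capped at 1.5 in either direction. The mitochondrial rows are below the NUL level through most of the 6 ID6 columns, and Acsl5, Ehhadh and Eci3 are above it in the 3 LAC columns.

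During lactation the liver had less RNA of the carnitine acyltransferases Cpt1a and Crot, of Bdh1 and of the electron-transfer gene Etfdh, and more of Acsl5, Ehhadh and Eci3. In LAC against NUL, 7 of 31 members were called, 3 higher and 4 lower; the share of all genes called was 11.2%, 5.19% higher and 6% lower. The median log2 fold change was -0.10 over the members and -0.01 over all genes tested. The other carnitine acyltransferases among the members were not called, Cpt2 at -0.20 (SE 0.12, adjusted p = 0.333) and Crat at 0.13 (SE 0.24, adjusted p = 0.811) on the log2 scale. In whole liver, fewer cells with an RNA and less of it per cell cannot be told apart.

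Markers of the liver's cell types differed between these groups as well. The summed level of the 8 hepatocyte markers was 130669 to 151852 TPM in LAC and 77079 to 98182 TPM in NUL. Those of other cells were lower in LAC without overlap: 114 to 157 TPM against 182 to 217.97 TPM for 6 Kupffer cell markers, 102 to 113 TPM against 130.2 to 143 TPM for 5 endothelial markers, and 83.9 to 94.6 TPM against 125 to 148 TPM for 5 stellate cell markers. The sum of 6 adipocyte markers, of which 1 reached a mean of 1 TPM, was 381 to 496 TPM in LAC and 669 to 886 TPM in NUL, and that of 5 bile duct markers 19.4 to 26.7 TPM against 32.9 to 47.7 TPM. By contrast, the erythroid sum was 2253 to 3336 TPM in LAC and 1144 to 2408 TPM in NUL. The part of these shifts in the members' changes was not tested.

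Cpt1a stood at 244, 282, 297 and 317 CPM in the 4 NUL animals, where CPM is the reads of a gene after all libraries are brought to 1 size, and at 157, 168 and 202 CPM in the 3 LAC animals. All 3 lactating animals were below all 4 controls (log2 fold change -0.70, SE 0.19, adjusted p = 0.0198). Its call was lost without LAC_200 (adjusted p = 0.094), LAC_213 or NUL_221. The electron-transfer enzyme Etfdh, which passes electrons to ubiquinone, went from 276, 308, 315 and 332 CPM to 248, 249 and 264 CPM. Its fall was shallow and its call was lost in 6 of 7 such fits (log2 fold change -0.28, SE 0.09, adjusted p = 0.0456). Acsl5, which activates long-chain fatty acids to acyl-CoA at the endoplasmic reticulum and mitochondria, was at 347, 407, 410.3 and 460.4 CPM in NUL and at 593, 721 and 787 CPM in LAC. It rose in lactation with no overlap between the groups (log2 fold change 0.79, SE 0.18, adjusted p = 0.00426); it overlaps Zdhhc6, whose counts summed to 14.2% of its own, and the use of strand in counting is not stated.

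Among peroxisomal genes, Crot, which makes medium-chain carnitine esters for export from the organelle, went from 738, 884, 988 and 1101 CPM to 483, 519.9 and 532 CPM. It had the largest fall of the members in lactation (log2 fold change -0.86, SE 0.18, adjusted p = 0.00285). Ehhadh, the bifunctional hydratase and dehydrogenase, was at 356, 408, 441 and 442 CPM in NUL and at 575, 580.3 and 585 CPM in LAC. The 3 lactating animals lay close together and above the controls (log2 fold change 0.49, SE 0.13, adjusted p = 0.0136), and the call was lost on the TPM scale (adjusted p = 0.0816 with limma). Eci3 was barely present in NUL, at 0.827, 1.03, 1.28 and 1.42 CPM, and reached 5.99, 7.29 and 8.69 CPM in LAC. That is a 6.40-fold rise (log2 fold change 2.68, SE 0.36, adjusted p = 3.66e-05) of a gene whose estimated count was not whole in 21 of 27 libraries, by at most 0.0403% of its highest count. Bdh1 dropped from 302, 314, 340.4 and 345 CPM to 182, 187 and 201.04 CPM, and the groups were far apart (log2 fold change -0.78, SE 0.10, adjusted p = 1.68e-05).

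Ppara was at 48.6, 53.9, 56.2 and 61.4 CPM in NUL and at 30.6, 39.3 and 55.5 CPM in LAC, with overlap between the groups. The difference was not called (log2 fold change -0.40, SE 0.19, adjusted p = 0.196). On the TPM scale 7 members were called, 2 higher and 5 lower; they lacked Ehhadh and held Scp2, which was lower. Of 19 other genes listed with mitochondrial oxidation, 5 were called, all higher. This list, named mitochondrial below, also holds the acyl-CoA synthetases Acsl3 and Acsl4 and the gene Acacb. Among those called was Acsl4, a synthetase that prefers arachidonate, at 1.09 on the log2 scale (SE 0.15, adjusted p = 2.59e-05). Acacb, whose malonyl-CoA restrains CPT1A, was also higher, at 1.77 (SE 0.42, adjusted p = 0.00901). In the list of regulators 2 of 16 were called, both lower, as were 2 of 9 ketone genes, and 1 of 16 other peroxisomal genes was higher.

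**Figure D2:**
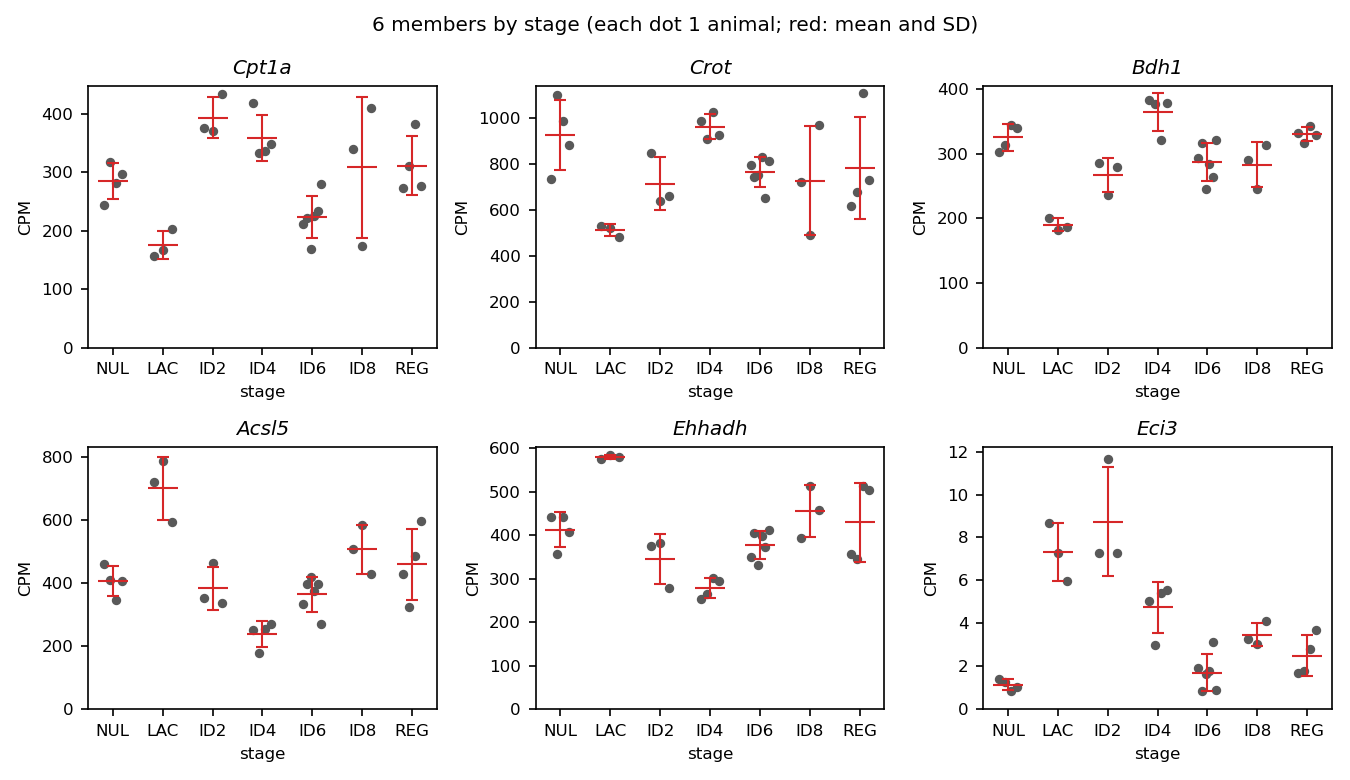
CPM of Cpt1a, Crot, Bdh1, Acsl5, Ehhadh and Eci3 by stage. Dots are animals and red marks are the mean and SD; in LAC, Cpt1a lies between 157 and 202 CPM and Acsl5 between 593 and 787 CPM.

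Within 2 days of weaning Cpt1a and Bdh1 were higher again and Acsl5 and Ehhadh lower. In ID2 against LAC, 8 members were called, 4 higher and 4 lower, where 16.1% of all genes were called, 8.48% higher and 7.64% lower. Cpt1a was at 369.6, 376 and 433 CPM in ID2, above every LAC animal and every NUL animal. It was 2.24-fold higher than in LAC (log2 fold change 1.16, SE 0.21, adjusted p = 0.000601), the largest rise of a member here. Echs1, the hydratase for short chains, was at 207, 232.5 and 247 CPM in LAC and 308, 322 and 324 CPM in ID2 (log2 fold change 0.47, SE 0.11, adjusted p = 0.00302). Echs1 overlaps Paox, whose counts summed to 23.0% of its own. Hadh, the dehydrogenase for short and medium chains, was at 308, 309 and 310.0 CPM and 359.9, 368 and 391 CPM; its call (log2 fold change 0.27, SE 0.09, adjusted p = 0.0447) was lost in all 6 fits that left out 1 animal.

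Acsl5 was back at 336, 353 and 462 CPM in ID2, below every LAC animal (log2 fold change -0.87, SE 0.19, adjusted p = 0.00315). Ehhadh was at 279, 374 and 383 CPM (log2 fold change -0.75, SE 0.14, adjusted p = 0.000775). The peroxisomal thiolase Acaa1b was at 934, 956 and 1064 CPM in LAC and 354, 539 and 624 CPM in ID2, with the lowest value of all animals in ID2. It fell most among the members (log2 fold change -0.96, SE 0.19, adjusted p = 0.0015), and its estimated count was not whole in 26 of 27 libraries. Crat, which buffers acetyl-CoA as acetylcarnitine in both organelles, was at 64.8, 70.9 and 82.1 CPM and 37.3, 43.7 and 48.9 CPM (log2 fold change -0.75, SE 0.25, adjusted p = 0.0486); this call was lost in all 6 fits without 1 animal. Crat overlaps Dolpp1, whose counts summed to 22.0% of its own. Bdh1 at 236, 279 and 285 CPM was above the LAC animals (log2 fold change 0.49, SE 0.11, adjusted p = 0.00252), and Ppara at 46.7, 50.9 and 57.4 CPM was not called (log2 fold change 0.30, SE 0.20, adjusted p = 0.324).

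Acaa1b and Acsl5 were not called with the clock score as a covariate (adjusted p = 0.0745 and 0.136). The summed hepatocyte markers were 104644 to 104790 TPM in ID2, below LAC, and those of 4 other cell types were above LAC without overlap: Kupffer 168 to 180 TPM, endothelial 131 to 134 TPM, stellate 101.2 to 112 TPM and bile duct 28.4 to 37.7 TPM. The part of these shifts was not tested. Without ID2_31, the library with pancreatic acinar RNA, 6 members were called, with Cpt1a, Bdh1 and Echs1 higher and Acaa1b, Acsl5 and Ehhadh lower. With the clock score as a covariate 5 members were called, and with only animals numbered 200 and over, which leaves 1 ID2 animal, 2 were. Of the other pathway genes, 7 of 19 mitochondrial, 4 of 9 ketone, 3 of 16 peroxisomal and 5 of 16 regulator genes were called. Ppargc1a, the coactivator of PPARα and of mitochondrial genes, was 1.12 (SE 0.26, adjusted p = 0.00451) on the log2 scale, and Aacs, which activates acetoacetate for lipid synthesis, was -2.70 (SE 0.59, adjusted p = 0.00418). Acsl3 and Acsl4, 2 further acyl-CoA synthetases, fell by 1.46 and 1.31 on that scale, Acacb and the receptor Ppard fell by 1.52 and 1.12, and the dehydrogenase Acad12 rose by 1.005.

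Set against NUL, the ID2 livers differed in 3 members, where 3.24% of all genes were called, 2.32% higher and 0.919% lower. Eci3 was high at 7.28, 7.29 and 11.7 CPM (log2 fold change 2.93, SE 0.36, adjusted p = 9.67e-05). Echs1 in ID2 lay above its NUL values of 225, 230.3, 239.4 and 256 CPM (log2 fold change 0.42, SE 0.10, adjusted p = 0.0145), a call lost without ID2_224 or ID2_39 or NUL_226. Acaa1b in ID2 lay below its NUL values of 743, 759, 778 and 926 CPM (log2 fold change -0.66, SE 0.18, adjusted p = 0.0429), a call lost in 6 of 7 fits without 1 animal. Cpt1a was 0.46 (SE 0.19, adjusted p = 0.2) on the log2 scale, Bdh1 -0.29 (SE 0.10, adjusted p = 0.116) and Ppara -0.09 (SE 0.18, adjusted p = 0.863), and none of these was called. With the title number, the clock score or only animals numbered 200 and over, which leaves 1 ID2 animal, 1 member was called, as without ID2_39 or NUL_226. The hepatocyte sum in ID2 was above NUL without overlap. The Kupffer and stellate sums and that of adipocyte markers (494 to 638 TPM) were below it, also without overlap. Of the 6 adipocyte markers, 2 reached a mean of 1 TPM in ID2. The part of these shifts was not tested. Other genes called were 4 of 19 mitochondrial, 4 of 16 peroxisomal, 2 of 16 regulator and 1 of 9 ketone genes, with Ppargc1a at 1.03 and Ppard at -1.29.

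At 4 days after weaning, Acsl5 and Ehhadh stood below the non-pregnant level and Bdh1 had its highest group mean. In ID4 against NUL, 5 members were called, 3 higher and 2 lower, where 4.25% of all genes were called, 2.64% higher and 1.61% lower. Acsl5 was at 178, 251, 256 and 270.0 CPM in ID4 and every animal was below every NUL animal (log2 fold change -0.77, SE 0.17, adjusted p = 0.0069). Ehhadh was at 252, 264, 295 and 301 CPM, again without overlap (log2 fold change -0.57, SE 0.12, adjusted p = 0.00636). Eci3 was at 3.01, 5.02, 5.40 and 5.56 CPM (log2 fold change 2.05, SE 0.34, adjusted p = 0.000892). Hadh was at 281, 322, 329 and 345 CPM in NUL and 365, 400.1, 401 and 405 CPM in ID4 (log2 fold change 0.30, SE 0.08, adjusted p = 0.0288), and its call was lost in 5 of 8 fits without 1 animal. Echs1 was at 277, 288, 290.5 and 323 CPM in ID4 (log2 fold change 0.31, SE 0.09, adjusted p = 0.0482), a call lost in 7 of 8.

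Cpt1a at 333, 336, 348 and 417 CPM lay above all NUL animals, but the difference was not called (log2 fold change 0.33, SE 0.18, adjusted p = 0.326). Neither were Bdh1 (log2 fold change 0.17, SE 0.09, adjusted p = 0.342) and Ppara (log2 fold change -0.07, SE 0.17, adjusted p = 0.872). On the TPM scale 3 members were called, 1 higher and 2 lower, and with only animals numbered 200 and over 1 was, where Acsl5 and Ehhadh had adjusted p = 0.127 and 0.126. Without ID4_13, ID4_15 or ID4_215 or NUL_226 or NUL_227, 3 members were called. The Kupffer sum, at 253 to 297 TPM, was above NUL without overlap. The stellate sum, at 110.2 to 121 TPM, and the adipocyte marker sum, at 259.5 to 535 TPM, were below it without overlap. Of the 6 adipocyte markers, 2 reached a mean of 1 TPM in ID4. The part of these shifts was not tested. Among other genes 7 of 19 mitochondrial, 2 of 9 ketone, 2 of 16 peroxisomal and 1 of 16 regulator genes were called, with Aacs at -2.36, Acsl3 at -1.62 and Ppard at -1.13.

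Between ID2 and ID4, 2 members were called, where 1.49% of all genes were, 0.645% higher and 0.84% lower. Bdh1 rose from 236, 279 and 285 CPM to 321, 376, 378 and 384 CPM (log2 fold change 0.45, SE 0.10, adjusted p = 0.0156), a call lost without ID2_31, when no member was called, and with the clock score as a covariate (adjusted p = 0.1002). Acsl5 fell (log2 fold change -0.68, SE 0.18, adjusted p = 0.0448), a call lost in all 7 fits without 1 animal. Cpt1a changed by -0.13 (SE 0.19, adjusted p = 0.824) and Ppara by 0.02 (SE 0.18, adjusted p = 0.981) on the log2 scale, and neither was called. The TPM scale called 2 members higher and 1 lower. In ID4 the hepatocyte sum, at 70638 to 80558 TPM, was below ID2, and the Kupffer sum and the endothelial sum, at 138 to 163 TPM, were above it without overlap; their part was not tested. Of the 19 other genes listed with mitochondrial oxidation, only the synthetase Acsl3 was called, lower at -1.14.

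At day 6 after weaning, 10 of 20 mitochondrial members, 3 of 9 peroxisomal members and Bdh1 were lower than at day 4, while Acsl5 and Ehhadh were higher. In ID6 against ID4, 16 members were called, 14 lower and 2 higher, where 8.53% of all genes were called, 4.64% lower and 3.89% higher. Of the 20 mitochondrial members 19 had a negative log2 fold change, with a median of -0.27, against a median of 0.01 over all genes tested. The mean of the mitochondrial members, as log2 CPM relative to NUL, was -0.27 ± 0.037 (SD, n = 6) in ID6, from -0.32 to -0.22, and -0.03 in ID4. The mean of the peroxisomal members without Eci3 was -0.14 ± 0.09 in ID6 and -0.05 in ID4.

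**Figure D3:**
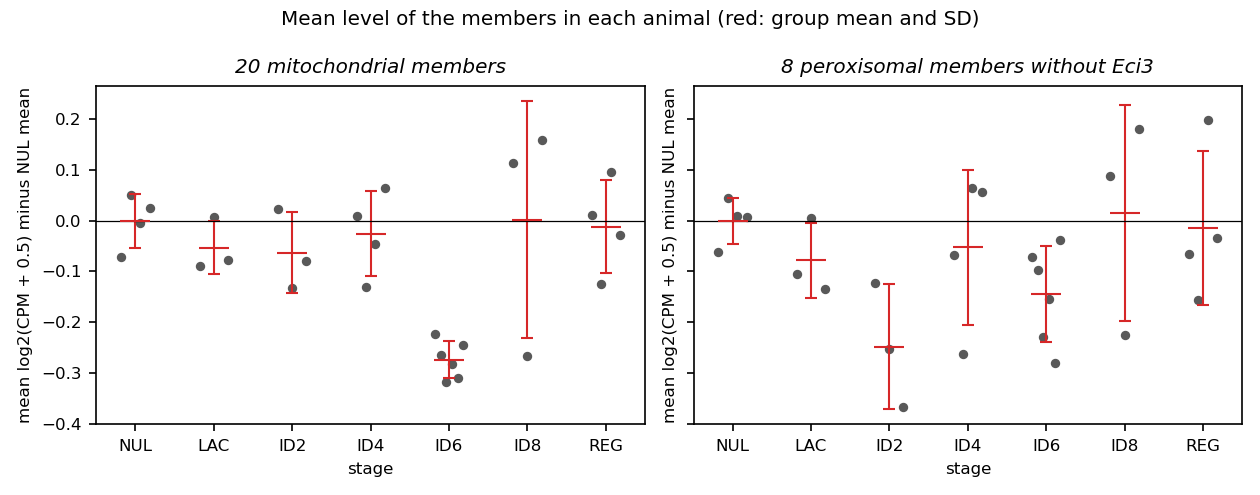
Mean log2 CPM of the 20 mitochondrial members (left) and of 8 peroxisomal members without Eci3 (right) in each animal, relative to the NUL mean, by stage. Dots are animals and red marks are the mean and SD; the 6 ID6 animals lie between -0.32 and -0.22 on the mitochondrial axis.

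Cpt1a, the entry step, was at 333, 336, 348 and 417 CPM in ID4 and ranged from 169 to 280.3 CPM (median 223) in the 6 ID6 animals. No ID6 animal reached the lowest ID4 animal (log2 fold change -0.68, SE 0.16, adjusted p = 0.00966); the adjusted p became 0.0626 once the title number entered as a covariate. Cpt2, its partner at the inner membrane, went from 129.7, 142, 148 and 149 CPM to a range of 91.8 to 119 CPM (median 105), also without overlap (log2 fold change -0.43, SE 0.10, adjusted p = 0.00665). Of the dehydrogenases of the first step, Acadm for medium chains went from 346, 357, 365 and 368 CPM to a range of 238 to 282 CPM (median 259). It was lower in all 6 ID6 animals (log2 fold change -0.48, SE 0.09, adjusted p = 0.00107). Hadh, for the third step, went from 365, 400.1, 401 and 405 CPM to a range of 246 to 311 CPM (median 293) (log2 fold change -0.47, SE 0.07, adjusted p = 0.000321), and the groups did not overlap.

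The remaining mitochondrial members that fell were smaller in step. They were Decr1, the reductase needed for unsaturated chains (-0.41 on the log2 scale), Eci1, the isomerase of the same branch (-0.38), the dehydrogenases Acads and Acadl (-0.30 and -0.30), Echs1 (-0.29) and Hadha, the α subunit of the trifunctional protein (-0.25). The calls of Hadha, Acads and Echs1 were lost in 7, 5 and 4 of the 10 fits without 1 animal. The peroxisomal members Eci3, Acaa1a and Decr2 also fell, Acaa1a by 0.40 and Decr2 by 0.30 on the log2 scale. Eci3 went from 3.01, 5.02, 5.40 and 5.56 CPM to a range of 0.824 to 3.15 CPM (median 1.73) (log2 fold change -1.48, SE 0.29, adjusted p = 0.00304), with 1 ID6 animal inside the ID4 range. Bdh1 was at 321, 376, 378 and 384 CPM in ID4 and ranged from 245 to 321 CPM (median 289) (log2 fold change -0.34, SE 0.08, adjusted p = 0.0101), the highest of them just inside the ID4 range. The call of Bdh1 was lost on the TPM scale (adjusted p = 0.0796) and among animals numbered 200 and over (0.159).

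Acsl5 was higher at ID6, from 178, 251, 256 and 270.0 CPM to a range of 269 to 420.2 CPM (median 386) (log2 fold change 0.61, SE 0.15, adjusted p = 0.0134), with its lowest animal just inside the ID4 range. Ehhadh rose as well, from 252, 264, 295 and 301 CPM to a range of 331 to 411 CPM (median 385), with no overlap (log2 fold change 0.44, SE 0.11, adjusted p = 0.0146). Neither was called with the title number or the clock score as a covariate, or with only animals numbered 200 and over, and Ehhadh was not without ID4_13 nor Acsl5 without ID4_15. Ppara ranged from 34.4 to 51.2 CPM (median 43.1) in ID6, overlapping ID4 (log2 fold change -0.25, SE 0.16, adjusted p = 0.351).

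On the TPM scale the median of all genes shifted to 0.11 in this comparison and that of the mitochondrial members to -0.14, with 15 of 20 negative, and 9 members were called, 3 higher and 6 lower. Without ID4_215, 10 members were called, Eci1 and Acaa1a no longer among them, and with only animals numbered 200 and over also 10, of which none was higher. The summed erythroid markers were 1218 to 3251 TPM in ID4 and 197 to 847 TPM in ID6, and the hepatocyte sum was 70638 to 80558 TPM and 83675 to 113832 TPM; their part in the fall was not tested. With the clock score as a covariate 15 members were called, all lower. Among the other pathway genes 12 of 19 mitochondrial genes were called, 9 lower and 3 higher, with 4 of 9 ketone, 4 of 16 peroxisomal and 4 of 16 regulator genes. The genes with steps over 1 on the log2 scale were higher: Aacs at 1.76, Acacb at 1.47, Acsl3 at 1.40 and Ppard at 1.37.

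The 6 ID6 livers were lower than NUL in 6 mitochondrial genes, among them the inner-membrane transferase Cpt2 and the reductase Decr1. In ID6 against NUL, 6 members were called, all lower and all mitochondrial, where 1.08% of all genes were called and 0.682% were lower. Decr1 was at 139, 152, 162 and 174 CPM in NUL and ranged from 105 to 117 CPM (median 113) in ID6. No ID6 animal reached the NUL animals (log2 fold change -0.49, SE 0.09, adjusted p = 0.00331). Cpt2 was at 134, 141, 148 and 160.0 CPM in NUL, above its ID6 range (log2 fold change -0.47, SE 0.10, adjusted p = 0.0117). Acadl, the long-chain dehydrogenase, was at 201.3, 205, 214.3 and 223 CPM in NUL and ranged from 158 to 184 CPM (median 162) (log2 fold change -0.35, SE 0.07, adjusted p = 0.00732). Hadhb, the β subunit of the trifunctional protein, was at 242, 265, 268 and 270.4 CPM in NUL and ranged from 199 to 221.2 CPM (median 206) (log2 fold change -0.33, SE 0.08, adjusted p = 0.0231), a call lost on the TPM scale (adjusted p = 0.5678 with limma).

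Eci1 was at 103, 107, 109.7 and 132 CPM in NUL and ranged from 75.3 to 94.1 CPM (median 83.9) (log2 fold change -0.43, SE 0.11, adjusted p = 0.0416). Acadm was at 312, 315, 327 and 350.3 CPM in NUL (log2 fold change -0.34, SE 0.09, adjusted p = 0.0492). The groups did not overlap for these genes either, but the calls of Acadm, Eci1 and Hadhb were lost in 9, 8 and 4 of 10 fits without 1 animal. Cpt1a overlapped NUL at 1 animal of ID6 and was not called (log2 fold change -0.35, SE 0.16, adjusted p = 0.384), nor were Bdh1 (log2 fold change -0.18, SE 0.08, adjusted p = 0.394) and Ppara (log2 fold change -0.33, SE 0.15, adjusted p = 0.406). Without NUL_221, 2 members were called, Cpt2 no longer among them, and without ID6_216 or NUL_226 or NUL_227, 3 were; DESeq2 called 12 and the fit of animals numbered 200 and over 10. The Kupffer sum (229.9 to 314 TPM) and the endothelial sum (147 to 163 TPM) were above NUL in ID6 and the erythroid sum was below it, all without overlap; their part was not tested. Called among other genes were 2 of 16 peroxisomal, 1 of 19 mitochondrial, 1 of 9 ketone and 0 of 16 regulator genes, of which edgeR gave 0 an unadjusted p under 0.05. Because ID4 and NUL were each compared with the same ID6 libraries, these results are not independent of one another.

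**Figure D4:**
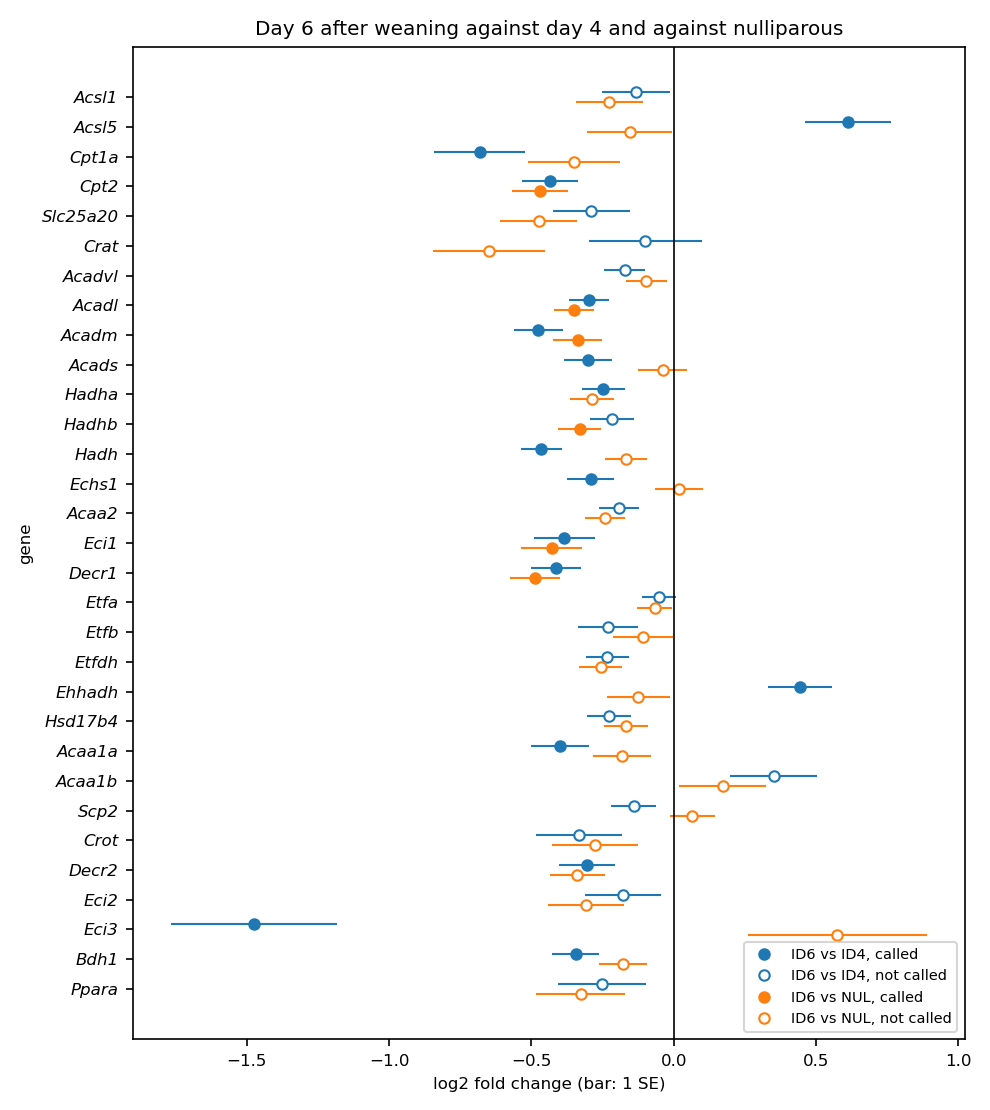
Log2 fold change of each of the 31 genes in ID6 against ID4 (blue) and in ID6 against NUL (orange); bars are 1 SE and filled points are genes called at an adjusted p under 0.05. Most mitochondrial genes lie left of 0 in both comparisons, and Acsl5 and Ehhadh lie right of 0 against ID4.

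At day 8, 4 mitochondrial members, Decr1, Hadha, Hadhb and Crat, and the peroxisomal Decr2 were higher than at day 6. In ID8 against ID6, 5 members were called, all higher, where 4.12% of all genes were called and 2.37% were higher. All 20 mitochondrial members had a positive log2 fold change, with a median of 0.25 and of 0.00 over all genes tested. On the TPM scale the median of all genes was -0.10 and that of the mitochondrial members 0.10, with 18 of 20 positive and 2 members called. Decr1 was at 124, 167 and 169.9 CPM in ID8, all above the ID6 animals (log2 fold change 0.46, SE 0.10, adjusted p = 0.00768). Hadha ranged from 343 to 371 CPM (median 362) in ID6 and was at 388, 464 and 512 CPM in ID8 (log2 fold change 0.34, SE 0.08, adjusted p = 0.0207). Hadhb was at 223, 264 and 291 CPM in ID8 (log2 fold change 0.32, SE 0.08, adjusted p = 0.0285).

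Decr2, the peroxisomal reductase, ranged from 72.4 to 95.5 CPM (median 83.5) in ID6 and was at 80.7, 122 and 128 CPM in ID8 (log2 fold change 0.38, SE 0.11, adjusted p = 0.0413). Crat ranged from 36.2 to 57.1 CPM (median 39.6) in ID6 and was at 38.6, 65.7 and 110.1 CPM in ID8, where 1 animal lay inside the ID6 range (log2 fold change 0.75, SE 0.21, adjusted p = 0.049). Of the 5 calls, those of Hadhb, Decr2, Crat and Hadha were lost on the TPM scale (adjusted p = 0.698, 0.235, 0.194 and 0.0996 with limma). Cpt1a was at 174, 340.0 and 409 CPM in ID8 and was not called (log2 fold change 0.46, SE 0.17, adjusted p = 0.129). The low value belonged to ID8_14, which was also the lowest of its group in 17 of 20 mitochondrial and 6 of 9 peroxisomal members. Bdh1 at 246, 289.8 and 314 CPM (log2 fold change -0.02, SE 0.09, adjusted p = 0.935) and Ppara at 53.7, 58.0 and 62.9 CPM (log2 fold change 0.41, SE 0.17, adjusted p = 0.169) were not called.

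This comparison turned on single animals: 16 members were called without ID8_14, 0 without ID8_101b, 0 without ID8_98b, 2 without ID6_209 and 3 without ID6_216 or ID6_218. All ID8 animals had numbers under 200 and all ID6 animals had higher ones, so number and stage cannot be told apart; with the number as a covariate, which rests on ID2 and ID4, 0 members were called, while the median log2 fold change of the members was 0.37, against 0.25 without it, and 30 of 31 were positive. ID8_14 was the 1 ID8 library with 2 sequencing runs, and with the number of runs as a covariate 3 members were called. The erythroid sum in ID8, at 51.9 to 107 TPM, was below ID6 and NUL, and the endothelial sum, at 152 to 159 TPM, was above NUL; their part was not tested. Against NUL the ID8 livers differed in 1 member, Eci3 at 3.05, 3.29 and 4.09 CPM (log2 fold change 1.60, SE 0.36, adjusted p = 0.0412), where 0.499% of all genes were called and 0.359% were higher, and that call was lost in all 7 fits without 1 animal. Against NUL, Cpt1a was 0.11 (SE 0.19, adjusted p = 0.86), Bdh1 -0.20 (SE 0.10, adjusted p = 0.402) and Ppara 0.08 (SE 0.18, adjusted p = 0.901) on the log2 scale. Among other genes 3 of 19 mitochondrial and 1 each of the ketone, peroxisomal and regulator genes were called against ID6, Ppard at -1.11. Against NUL, 1 mitochondrial gene was called.

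At 4 weeks after weaning no member was called against NUL or against ID8, where 0.0852% and 0.0487% of all genes were called. By edgeR 2 members had an unadjusted p under 0.05 against NUL and 3 against ID8, and DESeq2 called 0 in both. Cpt1a was at 274, 276, 311 and 382 CPM in REG, Bdh1 at 317, 328, 332 and 343 CPM and Ppara at 39.6, 50.3, 59.7 and 74.1 CPM. Against NUL their log2 fold changes were 0.12 (SE 0.18, adjusted p = 0.987), 0.02 (SE 0.09, adjusted p = 0.997) and 0.02 (SE 0.17, adjusted p = 1). Against ID8 they were 0.01 (SE 0.19, adjusted p = 0.989), 0.22 (SE 0.10, adjusted p = 0.52) and -0.06 (SE 0.18, adjusted p = 0.952). The mean of the mitochondrial members in REG was -0.01 on the log2 scale relative to NUL and that of the peroxisomal members without Eci3 also -0.01. No gene of the 4 other lists was called in either comparison by edgeR; those with an unadjusted p under 0.05 against NUL were 3 of 9 ketone, 2 of 19 mitochondrial, 0 of 16 peroxisomal and 2 of 16 regulator genes.

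Outside the 31, 1 gene of ketone synthesis was read beside Bdh1. Acat1, which joins 2 acetyl-CoA, was at 480.1, 556, 590.4 and 705 CPM in NUL and 309.8, 360.2 and 368 CPM in LAC. It was lower in lactation (log2 fold change -0.75, SE 0.13, adjusted p = 0.000328), higher at ID2 than in LAC (log2 fold change 0.62, SE 0.14, adjusted p = 0.00275) and lower at ID6 than at ID4 (log2 fold change -0.43, SE 0.11, adjusted p = 0.012). Those calls had the directions that Bdh1 had in the same comparisons, which rest on the same libraries.

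**Figure D5:**
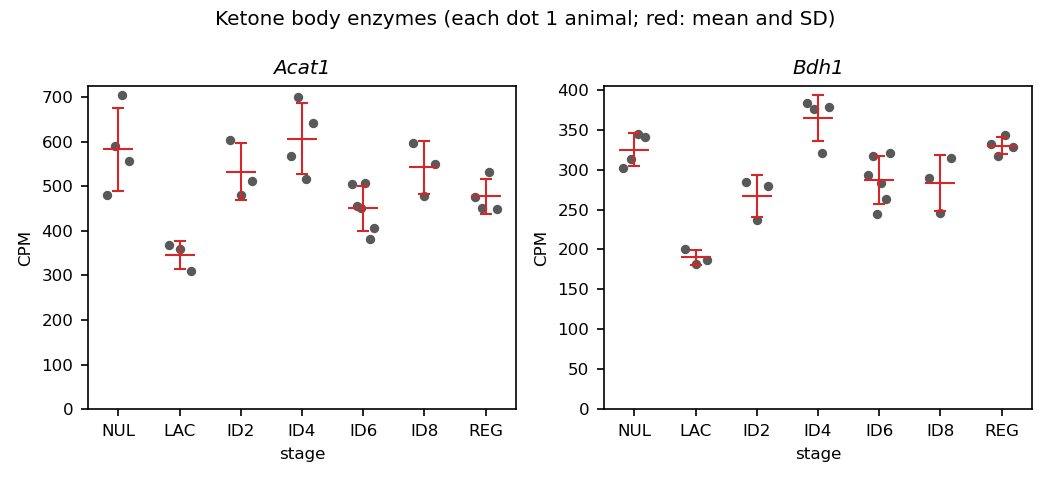
CPM of the ketone body genes Acat1 and Bdh1 by stage. Dots are animals and red marks are the mean and SD; Bdh1 lies between 182 CPM and 201.04 CPM in LAC and between 321 and 384 CPM in ID4.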

How the data were processed

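Bulk RNA of 27 whole livers, flash frozen and pulverised, was extracted with Trizol and made into NEBNext Ultra libraries, per the labels' protocols. The submitters' processing notes name STAR 2.6.1a, RSEM 1.3.1 and the build mm10 (GRCm38), and do not say whether strand was used. The deposited tables give, per the file headers, RSEM's expected count of each gene, which is the authors' estimate and is not normalised between libraries. They also give TPM, the authors' length-scaled value, per the file headers. Groups came from the titles, and libraries of a group were taken as separate animals from the title numbers. No pair of libraries in a group came near sampling noise (smallest chi-square per gene 42.7).

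Expected counts were rounded and fitted in R 4.3.3 with edgeR 4.0.16 (filterByExpr, TMM, robust quasi-likelihood) in 1 model of all 27 libraries, for 11 comparisons and a joint test over stages. This left 16428 genes, and the biological coefficient of variation was 0.19. A gene was called at a two-sided Benjamini-Hochberg adjusted p under 0.05 over all genes tested. CPM was computed with edgeR from the TMM-adjusted library sizes. Class means used log2(CPM + 0.5). Of 51826 genes listed, 193 had no symbol in the annotation and held 0.0147% of counts. The fit was tested on simulated data.

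Alternatives were DESeq2 size factors, the DESeq2 1.42.0 test, no filter, limma 3.58.1 on log2(TPM + 1) over 12522 genes, covariates for the clock score or for a title number under 200, and each library left out. A fit of animals numbered 200 and over and a covariate for sequencing runs were chosen after seeing the data. Every member is accounted for, and values of each animal (for ID6 the lowest, median and highest) are given for up to 5 rising and 5 falling called members per comparison, where the remaining called members are given by fold change, and always for Cpt1a, Bdh1 and Ppara. Outside the members, Acat1 is always named, 2 further genes of that rule are not reported here, and others are named when called with an absolute log2 fold change of at least 1. Members and lists were chosen with earlier results of these data known. In 11 members some estimated counts were not whole. Intervals from counts were not used, since spread between animals limits precision here.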

Additional observations from a re-analysis of the deposited data

Results flagged for a closer look

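In groups of 4 to 6 animals, 5 of 124 sets of values of the 31 genes held 1 animal far from the rest by Dixon's criterion, which chance gives in about 1 of 20 groups. Acsl1 was at 892 CPM in ID4_13, where the other 3 animals had 680 to 690 CPM. Slc25a20 was at 59.5 CPM in NUL_220, with the others at 76.6 to 77.8 CPM. Hadh was at 365 CPM in ID4_211, with the others at 400.1 to 405 CPM, and Bdh1 was at 321 CPM in the same animal, with the others at 376 to 384 CPM. Eci1 was at 103 CPM in REG_214, with the others at 117 to 118 CPM.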

How the results depend on the processing

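Counts of members called at an adjusted p under 0.05 are given. ID6 against ID4 gave 16 members, 10 among animals numbered 200 and over and 9 by limma on TPM. ID6 against NUL gave 6, 12 by DESeq2 and 10 among animals numbered 200 and over. ID8 against ID6 gave 5, 11 by DESeq2, 10 with the clock score, 3 without the filter or with the number of sequencing runs, 2 by limma on TPM and 0 with the title number. ID8 against NUL gave 1, and 0 by limma on TPM, without the filter, with the number of runs or with the title number. ID2 against LAC gave 8, 5 with the clock score and 2 among animals numbered 200 and over. ID2 against NUL gave 3, and 1 with the clock score, with the title number or among animals numbered 200 and over. ID4 against NUL gave 5, 3 by limma on TPM or without the filter, 2 with the title number and 1 among animals numbered 200 and over. ID4 against ID2 gave 2, 1 with the clock score, without the filter, with the number of runs or with the title number, and 0 among animals numbered 200 and over. The cause of these moves was not tested. Leaving out 1 library gave 10 to 16 members in ID6 against ID4, 2 to 5 in ID6 against NUL, 0 to 16 in ID8 against ID6, 0 to 0 in ID8 against NUL, 6 to 6 in ID2 against LAC, 1 to 2 in ID2 against NUL, 3 to 5 in ID4 against NUL, 0 to 1 in ID4 against ID2, 5 to 7 in LAC against NUL and 19 to 26 over all stages.

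The animals numbered 200 and over include no ID8 animal and 1 ID2 animal, and that fit and the number of sequencing runs were added after seeing the data. No fold change of a called member changed sign under any alternative. Outside the fits that leave out 1 library, 317 of 418 such fold changes kept their call, and with 1 library left out 317 of 444 did. No paired analysis was possible because no animal number occurs in more than 1 group. Groups of 3 or 4 animals limit what the tests can call. Libraries held 41120650 to 75664540 counts, and Eci3 had the lowest counts of the members.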

Other observations

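Summed per length, the 9 peroxisomal members reached 3936 ± 182 TPM in LAC (SD, n = 3) and 3857 ± 287 TPM in ID2 (n = 3), against 4616 ± 170 TPM in NUL (n = 4), 4774 ± 223 TPM in ID4 (n = 4) and 4975 ± 418 TPM in ID6 (n = 6). Scp2 alone had a mean of 2714 TPM in NUL and weighs most in that sum. The 20 mitochondrial members summed to 4706 ± 167 TPM in NUL, 4409 ± 178 TPM in LAC, 4221 ± 175 TPM in ID6 and 4776 ± 212 TPM in REG. On this scale the peroxisomal sum had its highest group mean at ID6. By contrast, the mean log2 CPM of the same 9 genes relative to NUL was -0.09 at ID6, the lowest of the 7 groups, and 0.14 at ID4. That order depended on Eci3, the member with the lowest counts. Without it the mean was lowest at ID2, at -0.25, with -0.14 at ID6 and -0.05 at ID4. The TPM scale shifts the median of all genes by 0.11 in ID6 against ID4, and the sum weighs genes by their level. The sums were not tested.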
